A study of Mus musculus with 16 samples.

Results

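Glycolysis turns glucose into pyruvate, and cells that lack oxygen lean on it and pass the pyruvate on to lactate. The response to low oxygen is governed by the hypoxia-inducible factors (HIF): prolyl hydroxylases mark the HIF alpha subunits for destruction while oxygen is present, and when it is scarce HIF accumulates and switches on glycolytic enzymes, glucose and lactate handling, vessel growth factors and its own hydroxylases. In the embryonic brain, progenitors depend heavily on glycolysis, and HIF signalling is tied to the growth of vessels into the tissue. The genes described here are 34 members of this system, chosen by name with earlier results of these data known. They are the enzymes from hexokinase to lactate dehydrogenase, and the enzymes and transporter that set the fate of pyruvate and lactate. HIF with its hydroxylases and HIF targets outside glycolysis complete the list.

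Illumina bead arrays read in 1 colour held brain RNA of E18 mouse embryos (embryonic day 18): 8 arrays of HeCo mutants and 8 of wild type (WT), 16 in all, from the NOR/CD-1 strain. In HeCo mice a spontaneous mutation of Eml1, whose product binds microtubules, leaves a band of neurons stranded beneath the cerebral cortex. The labels name no brain region, and whether every sample is a different embryo is unknown, so p-values measure only the spread between these samples. Arrays are called by the number in their title: HeCo 5 to 8 and 13 to 16, WT 1 to 4 and 9 to 12.

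Probes were named for 31 of the 34 genes, 65 probes in all, of which 42 were kept because they stood above the negative controls (detection p under 0.05) on at least 8 arrays. This left 26 genes for testing among 10624 in the whole series. Hk2, Gpi1 and Eno1 had no probe annotated to them. Pfkfb3, Bnip3, Ero1l (now Ero1a) and Car9 had probes detected on 0 of 16 arrays, and that of Adm was detected on 1. Of the tested genes, 23 were detected on all 16 arrays, and the other 3 (Ldhb, Epas1 and Slc16a3) lay near the detection limit. All values are log2 signals after background correction and quantile normalization, and every difference is HeCo minus WT. The brightest kept probe stands for a gene.

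The arrays had mean deposited signals between 374.9 (WT 10) and 597.9 (HeCo 15), with 17694 (WT 10) to 19553 (HeCo 6) of 45281 probes detected. With 8 arrays a group, precision is limited by their number. The brighter Eml1 probe set the genotypes apart as labelled, at 4.51 ± 0.083 in HeCo and 8.51 ± 0.15 in WT (SD, n = 8 each), and it was detected on 0 HeCo and 8 WT arrays. Its second probe ran the other way, at 6.51 ± 0.37 in HeCo and 4.57 ± 0.091 in WT (SD, n = 8 each). The neuron markers Tubb3, Stmn2, Map2 and Dcx were detected on all 16 arrays, while Snap25 was detected on none and Neurod6 on 1. HeCo 7 and HeCo 16 stood apart in the mean of 11 marker genes of diencephalon, midbrain and hindbrain. Relative to the WT mean it was -2.60 (HeCo 7) and -2.29 (HeCo 16), against -0.21 to 0.098 on the other HeCo arrays. WT arrays ran from -0.46 (WT 3) to 0.19 (WT 12). Where leaving out HeCo 7 and HeCo 16 reversed a member's sign or moved its difference by over 1.5 times, the value without them is given as well.

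The promoters are shown first because HIF acts through a short DNA element whose core reads ACGTG or GCGTG. RefSeq promoter windows of the mouse assembly GRCm38.p6 were at hand for 31 of the 34 genes, and the 250 bases upstream of each annotated start were searched for the cores on both strands. A core was found in at least 1 window of 28 of 31 members (90.3%), against 41.5% of 27025 genes. ACGTG occurred in 61.3% of members against 18.5% of all genes, and GCGTG in 64.5% against 30.9%. Per window, which sets aside that some genes have several starts, the shares were 76.1% of 46 member windows and 38.6% of all windows. Members and background were not matched for base composition, and a match is not evidence of binding. Because members include genes listed as HIF targets, a share above that of all genes is not an independent finding. Members without either core in this window were Eno2, Tpi1 and Gpi1. The cores occurred in all 9 HIF targets outside glycolysis that had a window and in 6 of 8 genes of upper glycolysis.

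The sequences below belong to the 4 members with the smallest p-values and, for comparison, to Pgk1 and Ldha, classical HIF targets among the glycolytic genes. Each is written 5′ to 3′ on the gene's strand with the cores in capitals, in whichever orientation they occur, and positions count back from the start site. For Kdm3a, Ankrd37 and Ldha the stretches around the cores are printed. Kdm3a has 3 windows and Ldha 2, and only the first of each is shown. Ldha also has GCGTG, in the window not shown. CACGTG holds ACGTG on both strands and is also the E-box sequence.
Kdm3a, chr6:71632921-71632950, minus strand, core at -27: ggctgtGCGTGtcttgtgagagagagctct
Egln3, chr12:54203875-54204124, minus strand, core at -229: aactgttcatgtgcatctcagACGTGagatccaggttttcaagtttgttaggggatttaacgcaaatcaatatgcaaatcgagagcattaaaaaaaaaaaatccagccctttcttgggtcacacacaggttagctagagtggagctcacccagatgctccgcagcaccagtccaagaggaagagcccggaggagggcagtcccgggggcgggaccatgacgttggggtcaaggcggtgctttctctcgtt
Ankrd37, chr8:46000068-46000097, minus strand, core at -241: agcagtACGTGcctagctcggctcgcatca
Ankrd37, chr8:45999982-46000011, minus strand, cores at -155 and -152: actgcgCACGCGTGctgcggccgcctgggc
Ankrd37, chr8:45999851-45999880, minus strand, core at -6: ggctgcacatgtcagtgtttgggtACGTGa
Eno2, chr6:124769674-124769923, minus strand, no core: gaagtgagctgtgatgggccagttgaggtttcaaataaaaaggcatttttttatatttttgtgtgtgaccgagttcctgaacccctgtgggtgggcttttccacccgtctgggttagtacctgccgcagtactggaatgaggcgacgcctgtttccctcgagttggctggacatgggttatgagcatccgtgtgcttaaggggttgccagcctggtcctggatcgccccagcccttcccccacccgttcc
Pgk1, chrX:106186850-106187099, plus strand, cores at -150 and -131: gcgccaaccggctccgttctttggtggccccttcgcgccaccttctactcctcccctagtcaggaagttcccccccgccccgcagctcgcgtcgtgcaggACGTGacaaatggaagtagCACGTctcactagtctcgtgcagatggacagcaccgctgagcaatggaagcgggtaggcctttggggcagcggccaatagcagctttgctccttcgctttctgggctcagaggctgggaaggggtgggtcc
Ldha, chr7:46845653-46845682, plus strand, cores at -145 and -144: gcagcaCACGTGgagccactcttgcaggga
Ldha, chr7:46845750-46845779, plus strand, cores at -48, -47 and -34: agcctaCACGTGggttcccgCACGTccgct

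No member passed the test between HeCo and WT brain. With limma and Benjamini-Hochberg adjustment over all 10624 genes, 0 of 26 members had an adjusted p under 0.05, where 6 genes of the whole series did (0.0565%). At an unadjusted limma p under 0.05 there were 5 members (19.2% of 26), against 749 genes of the series (7.05%). There were 3 such members without HeCo 7 and HeCo 16, against 5.4% of all genes. Of these 5, Kdm3a, Egln3 and Ankrd37 had the higher mean in HeCo (3.74% of all genes) and Eno2 and Aldoa the lower (3.31%). The lowest adjusted p among members was 0.314, for Kdm3a. Member differences ran from -0.23 to 0.26 with a median of -0.01, close to the median of -0.0052 over all genes. In no member did the HeCo and WT arrays separate fully, which 12 genes of the series did (0.113%). In these bulk samples, fewer cells of a type and less RNA per cell cannot be told apart, and this holds for every difference below.

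**Figure D1:**
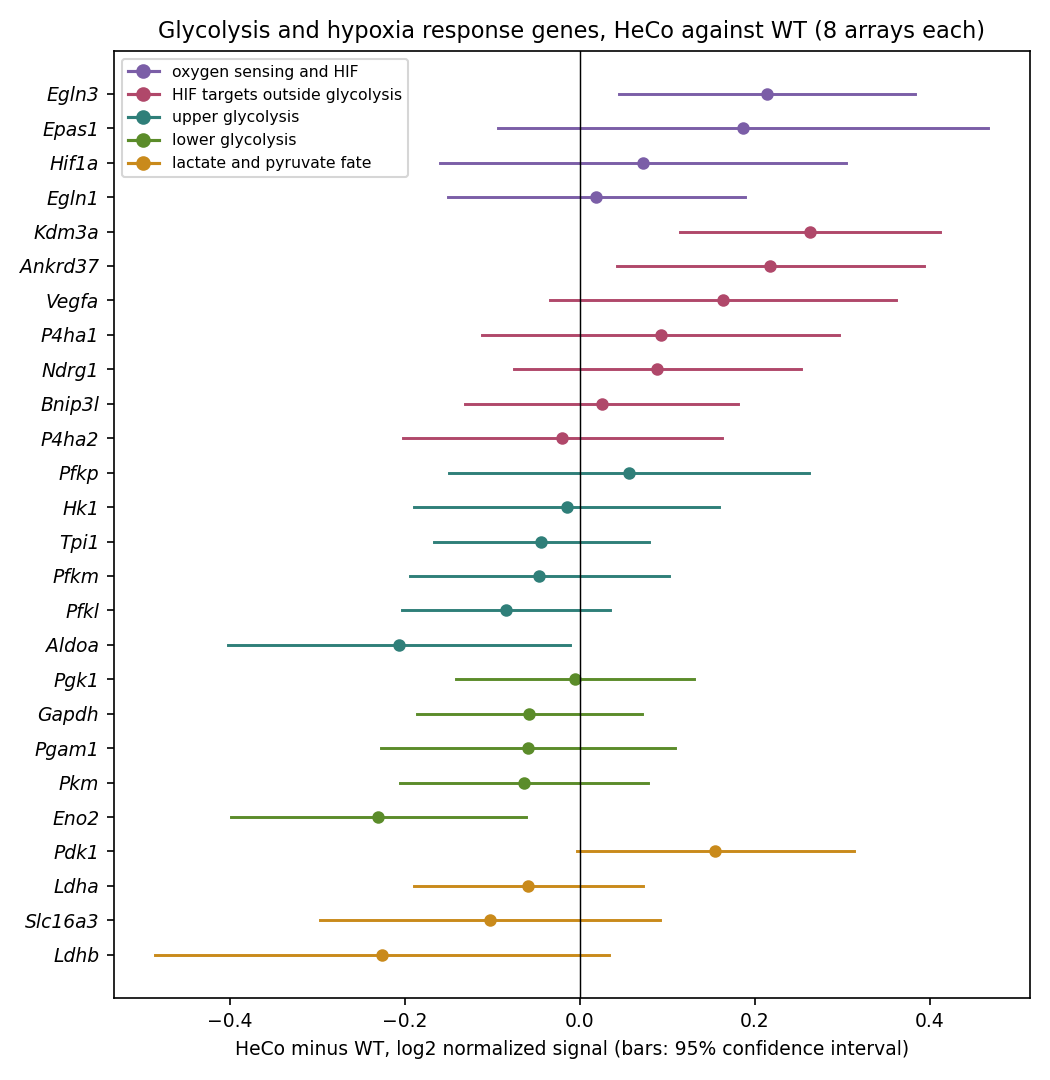
Difference between HeCo and WT brain (log2 signal, points) with its 95% confidence interval (bars) for the 26 tested genes, coloured by role, 8 arrays per group. Most HIF targets outside glycolysis lie right of 0 and most glycolytic enzymes left of it, and no gene passed the adjusted threshold.

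The differences of the 4 measured genes of oxygen sensing ran from 0.019 to 0.21, with a median of 0.13, and none passed the test.

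Egln3 (PHD3) is a prolyl hydroxylase that tags HIF alpha for degradation and is itself induced by HIF. Its signal ran from 7.48 to 7.85 with a median of 7.62 on HeCo arrays, and from 7.19 to 7.77 with a median of 7.36 on WT arrays. All 8 HeCo arrays lay above the WT mean, but WT 2 and WT 3 reached into the HeCo range and only HeCo 7 lay above every WT array. The means were 7.62 ± 0.12 in HeCo and 7.40 ± 0.17 in WT (SD, n = 8 each). The difference was 0.21 (SE 0.082, limma adjusted p = 0.629). Without HeCo 7 and HeCo 16 it was 0.17, with an unadjusted p above 0.05 (limma adjusted p = 0.884).

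Epas1 encodes HIF-2 alpha, the HIF subunit abundant in vascular endothelium. Its probe was dim, detected on 6 HeCo arrays and 3 WT arrays. Signals ran from 4.64 to 5.72 (median 5.18) in HeCo and from 4.62 to 5.36 (median 4.90) in WT, so the groups overlapped almost throughout. The means were 5.15 ± 0.32 in HeCo and 4.96 ± 0.27 in WT (SD, n = 8 each), with a difference of 0.19 (SE 0.14, limma adjusted p = 0.811).

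Hif1a, the HIF-1 alpha subunit, is controlled mainly at the level of its protein. It averaged 8.05 ± 0.22 in HeCo and 7.98 ± 0.27 in WT (SD, n = 8 each), a difference of 0.073 (SE 0.11). WT 10 lay far below the other WT arrays at 7.38, and without it the difference was -0.014. Egln1 (PHD2), the main oxygen sensor among the hydroxylases, differed by 0.019 (SE 0.082). Its other probes gave -0.061 (SE 0.089) and 0.11 (SE 0.089), so that no direction can be read for Egln1.

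Among HIF targets outside glycolysis, 6 of 7 measured genes had the higher mean in HeCo (48.1% of all genes did), with a median difference of 0.092. This count was added after the data had been seen. It was 6 of 7 within title numbers 1 to 8 and within 9 to 16, and 5 to 7 when single arrays were left out. Within description numbers 1 to 8 and 9 to 16 it was 6 of 7 and 5 of 7. When arrays were scaled to the same median it was 7 of 7, but that scaling also raised the median of all genes to 0.048. With HeCo 7 and HeCo 16 left out it was 6 of 7, with a median difference of 0.048. The mean over the 7 genes ran from 8.45 to 8.57 in HeCo and from 8.29 to 8.48 in WT. HeCo 15 and HeCo 6 lay below the highest WT array, WT 12, and the other 6 HeCo arrays lay above all WT arrays.

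Kdm3a (JMJD1A), a histone H3 lysine 9 demethylase induced by HIF, had the smallest p of all members and carries the GCGTG core shown above. Its signal ran from 9.19 to 9.57 with a median of 9.34 on HeCo arrays and from 8.93 to 9.24 with a median of 9.08 on WT arrays. All 8 HeCo arrays lay above the WT mean, and 6 of them lay above every WT array. The means were 9.36 ± 0.14 in HeCo and 9.10 ± 0.12 in WT (SD, n = 8 each), a 1.20-fold difference (log2 0.26, SE 0.072, limma adjusted p = 0.314). Over the alternatives the adjusted p ranged from 0.262 to 0.999. Its other kept probes gave 0.15 (SE 0.071) and 0.27 (SE 0.086), so all 3 pointed the same way. Without HeCo 7 and HeCo 16 the difference was 0.23 (limma adjusted p = 0.796), and it was 0.21 within title numbers 1 to 8 and 0.31 within 9 to 16.

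Ankrd37 is a small ankyrin repeat protein and a direct HIF-1 target. Its signal ran from 7.40 to 7.92 (median 7.63) in HeCo and from 7.24 to 7.61 (median 7.39) in WT. On 5 HeCo arrays it was above every WT array, and HeCo 6 alone fell under the WT mean. The means were 7.64 ± 0.18 in HeCo and 7.42 ± 0.14 in WT (SD, n = 8 each), with a difference of 0.22 (SE 0.085, limma adjusted p = 0.65). It was 0.25 without HeCo 7 and HeCo 16 (limma adjusted p = 0.884).

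Vegfa, the main growth factor for vessels and a textbook HIF target, averaged 8.68 ± 0.20 in HeCo and 8.51 ± 0.21 in WT (SD, n = 8 each). The difference was 0.16 (SE 0.096, limma adjusted p = 0.755) and that of its other probe 0.15 (SE 0.081). The groups overlapped, since WT 3 and WT 4 lay within the upper HeCo range. Ndrg1, a stress-responsive gene induced by low oxygen, differed by 0.089 (SE 0.079) on the brighter probe (0.032 without HeCo 7 and HeCo 16) and by 0.18 (SE 0.062, adjusted p = 0.572 in the limma fit over probes) on the dimmer one. P4ha1, the catalytic subunit of the prolyl hydroxylase that modifies collagen, differed by 0.092 (SE 0.098) and 0.13 (SE 0.11) on its probes, although HeCo 15 had the lowest signal of all 16 arrays at 5.82. With HeCo 7 and HeCo 16 left out, the brighter P4ha1 probe gave 0.048. Its isoform P4ha2 gave -0.020 (SE 0.088; -0.038 without those arrays) and 0.065 (SE 0.12). Bnip3l (NIX), a receptor that marks mitochondria for removal, averaged 11.89 ± 0.11 in HeCo and 11.87 ± 0.19 in WT (SD, n = 8 each). For the brightest probes of Vegfa, Ndrg1, P4ha1, P4ha2 and Bnip3l the confidence intervals spanned 0.

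**Figure D2:**
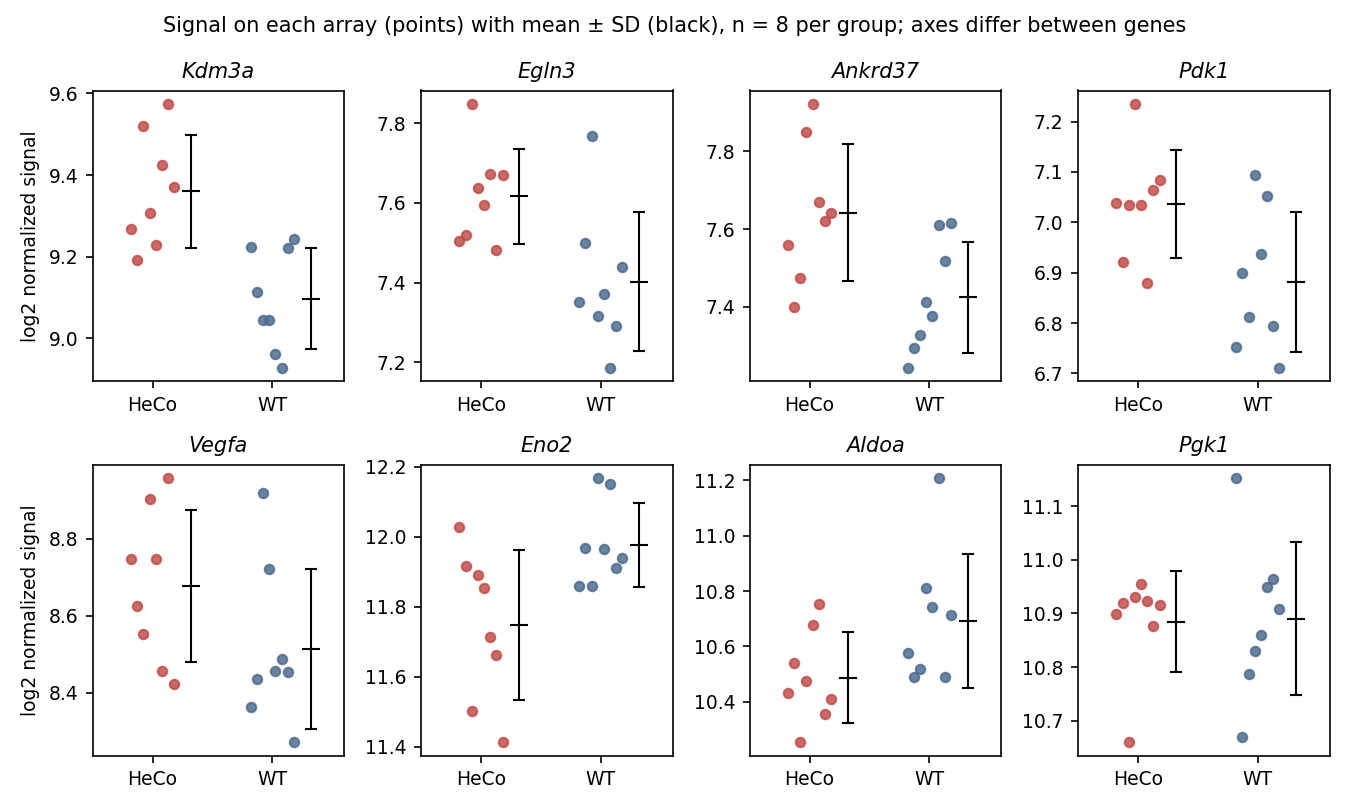
Log2 signal on each array (points) with mean ± SD (black) for 8 members in HeCo (left, n = 8) and WT (right, n = 8), with a separate axis for each gene. All 8 HeCo arrays lie above the WT mean for Kdm3a and Egln3, 7 of 8 lie below it for Eno2 and Aldoa, and the groups overlap in every gene.

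Markers of other cell types and of forebrain were read on the same arrays. The 9 measured of 10 markers of endothelium and pericytes had a median difference of 0.0015, and their mean ran from 7.83 to 8.11 in HeCo and from 7.86 to 8.14 in WT. Kdr was the marker without a kept probe, with at most 3 arrays detected. The 6 measured of 7 meningeal markers all had the higher mean in HeCo, with a median difference of 0.19 and none past the adjusted threshold. Their mean ran from 8.97 to 9.32 in HeCo and from 8.50 to 9.31 in WT, and Col1a2 was detected on 1 array. The 2 measured forebrain markers also had the higher mean in HeCo, their mean running from 6.39 to 7.03 in HeCo and from 6.21 to 6.70 in WT, with Emx2 detected on no array. Of these, Lhx2 lay above the WT mean on 8 of 8 HeCo arrays (0.33, SE 0.094, limma adjusted p = 0.365). Among microglial markers, 5 of 6 had the higher mean in HeCo, with a median difference of 0.067 and a mean from 6.20 to 6.61 in HeCo and from 6.11 to 6.49 in WT. Of the 3 measured choroid plexus markers (4 listed), 2 had the higher mean in HeCo, with a median difference of 0.098 and a mean from 9.53 to 10.36 in HeCo and from 9.66 to 10.19 in WT, and Kl was detected on 1 array. Relative to the WT mean, the forebrain mean was 0.54 on HeCo 7 and on HeCo 16, against -0.10 to 0.48 on the other HeCo arrays. The meningeal mean was 0.38 (HeCo 7) and 0.35 (HeCo 16), against 0.022 to 0.27 on the others. For choroid plexus it was 0.38 and 0.33, against -0.46 to 0.26, and for microglia 0.12 and 0.29, against -0.12 to 0.14. The part of the meningeal, forebrain, microglial and choroid plexus markers in the differences of the HIF targets was not tested.

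Among the enzymes of glycolysis, 12 of 13 measured genes, lactate dehydrogenases included, had the lower mean in HeCo (51.9% of all genes did), with a median difference of -0.059. This count too was added after the data had been seen, and it depended on the arrays used. It was 5 of 13 within title numbers 1 to 8 and 13 of 13 within 9 to 16, the same counts came from the numbers in the descriptions (5 of 13 and 13 of 13), and it was 9 of 13 when arrays were scaled to the same median. That scaling put the median of all genes at 0.048 and the median of the enzymes at -0.0037. Without HeCo 7 and HeCo 16 the count was 11 of 13 and the median -0.054, and the median was -0.019 without HeCo 15 and -0.035 without WT 10. The mean over the 13 genes ran from 10.16 to 10.36 in HeCo and from 10.28 to 10.53 in WT, so the groups overlapped for most of their range.

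Aldoa, which splits fructose bisphosphate, had the smallest p in upper glycolysis. Of its 3 promoter windows at least 1 holds ACGTG, though not the first. Its signal ran from 10.25 to 10.75 with a median of 10.45 on HeCo arrays and from 10.49 to 11.21 with a median of 10.64 on WT arrays. On 5 HeCo arrays it was below every WT array, while WT 10 lay far above all others. The means were 10.49 ± 0.16 in HeCo and 10.69 ± 0.24 in WT (SD, n = 8 each), with a difference of -0.21 (SE 0.094, limma adjusted p = 0.692). Without WT 10 it was -0.13 (limma adjusted p = 0.962), and without HeCo 7 and HeCo 16 it was -0.15 (limma adjusted p = 0.886), both with an unadjusted p above 0.05.

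Pfkl is the liver-type subunit of phosphofructokinase, the committing step of glycolysis. It ran from 11.13 to 11.50 (median 11.34) in HeCo and from 11.36 to 11.55 (median 11.41) in WT, and 4 HeCo arrays lay below all WT arrays. The means were 11.34 ± 0.11 in HeCo and 11.43 ± 0.064 in WT (SD, n = 8 each), a difference of -0.084 (SE 0.057, limma adjusted p = 0.798). The muscle-type subunit Pfkm differed by -0.046 (SE 0.072) and the platelet-type Pfkp by 0.057 (SE 0.099), the sole enzyme of the group with the higher mean in HeCo. For Pfkp this became -0.010 without HeCo 7 and HeCo 16. Hexokinase 1 (Hk1), which traps glucose in the cell, differed by -0.015 (SE 0.084), and its dimmer probe by 0.15 (SE 0.13). The triose isomerase Tpi1 differed by -0.044 (SE 0.059; 0.013 without HeCo 7 and HeCo 16), while its other probes gave -0.13 (SE 0.070) and 0.084 (SE 0.11). For Hk1 and Tpi1 the probes thus disagreed in direction.

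In lower glycolysis the smallest p was that of Eno2, the enolase of neurons, whose window shown above holds no HIF core. Its signal ran from 11.41 to 12.03 with a median of 11.78 on HeCo arrays, and from 11.86 to 12.17 with a median of 11.95 on WT arrays. Of the HeCo arrays, 5 lay below every WT array and HeCo 5 alone lay above the WT mean. The means were 11.75 ± 0.21 in HeCo and 11.98 ± 0.12 in WT (SD, n = 8 each), a 1.17-fold lower signal (log2 -0.23, SE 0.081, limma adjusted p = 0.612). The lowest signals were those of HeCo 16 and HeCo 7, the arrays low in markers of diencephalon, midbrain and hindbrain, and without them the difference was -0.13 with an unadjusted p above 0.05 (limma adjusted p = 0.884). Within title numbers 1 to 8 it was -0.13 and within 9 to 16 it was -0.33. Its ubiquitous counterpart Eno1 had no annotated probe, so a shift between the enolases could not be examined.

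Pkm, pyruvate kinase, ran from 11.85 to 12.13 (median 11.94) in HeCo and from 11.77 to 12.29 (median 12.04) in WT, all HeCo arrays lying within the WT range. The means were 11.97 ± 0.10 in HeCo and 12.03 ± 0.16 in WT (SD, n = 8 each), a difference of -0.063 (SE 0.069, limma adjusted p = 0.863). Gapdh, often taken as a reference gene, differed by -0.057 (SE 0.062), and the mutase Pgam1 by -0.059 (SE 0.081). Pgk1, which makes the first ATP of the pathway, averaged 10.88 ± 0.094 in HeCo and 10.89 ± 0.14 in WT (SD, n = 8 each). Its difference of -0.0051 (SE 0.066, 95% confidence interval -0.14 to 0.13) leaves room for changes of up to about that size in either direction, and it was 0.027 without HeCo 7 and HeCo 16. The promoter of Pgk1 shown above holds ACGTG on both strands.

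Markers of progenitors, astrocytes, muscle, neurons and erythroid cells were set beside these enzymes. The 5 measured of 6 markers of radial glia and progenitors all had the lower mean in HeCo, with a median difference of -0.053. Hes5 (-0.49, SE 0.10, limma adjusted p = 0.0804) and Nes (-0.18, SE 0.069) differed most. Vim (-0.053), Fabp7 (-0.028) and Sox2 (-0.0074) differed by less than their SE. The mean of the 5 ran from 8.00 to 8.51 in HeCo and from 8.30 to 8.54 in WT, and Pax6 was detected on no array. The 3 measured of 7 skeletal muscle markers also had lower means in HeCo, with a mean from 5.68 to 6.15 in HeCo and from 5.98 to 6.24 in WT, and with Ckm and Tnnc2 detected on no array. Of 5 astrocyte markers 4 were measured, and 3 of them had the lower mean in HeCo, with a median difference of -0.16. Their mean ran from 8.79 to 9.45 in HeCo and from 8.99 to 9.58 in WT, and Gfap was detected on 2 arrays. Relative to the WT mean, the astrocyte mean was -0.58 on HeCo 7 and -0.27 on HeCo 16, against -0.29 to 0.084 on the other HeCo arrays. Aldoc, an aldolase and thus itself a glycolytic enzyme, is one of these markers and differed by -0.14 (SE 0.076). Of 6 neuron markers 4 were measured, 2 with the higher and 2 with the lower mean in HeCo, with a median difference of 0.0049. Their mean ran from 10.92 to 11.23 in HeCo and from 10.99 to 11.215 in WT. The 3 measured of 7 erythroid markers had a median difference of -0.0025, with 1 higher and 2 lower in HeCo. The part of these lists in the enzymes' differences was not tested.

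**Figure D3:**
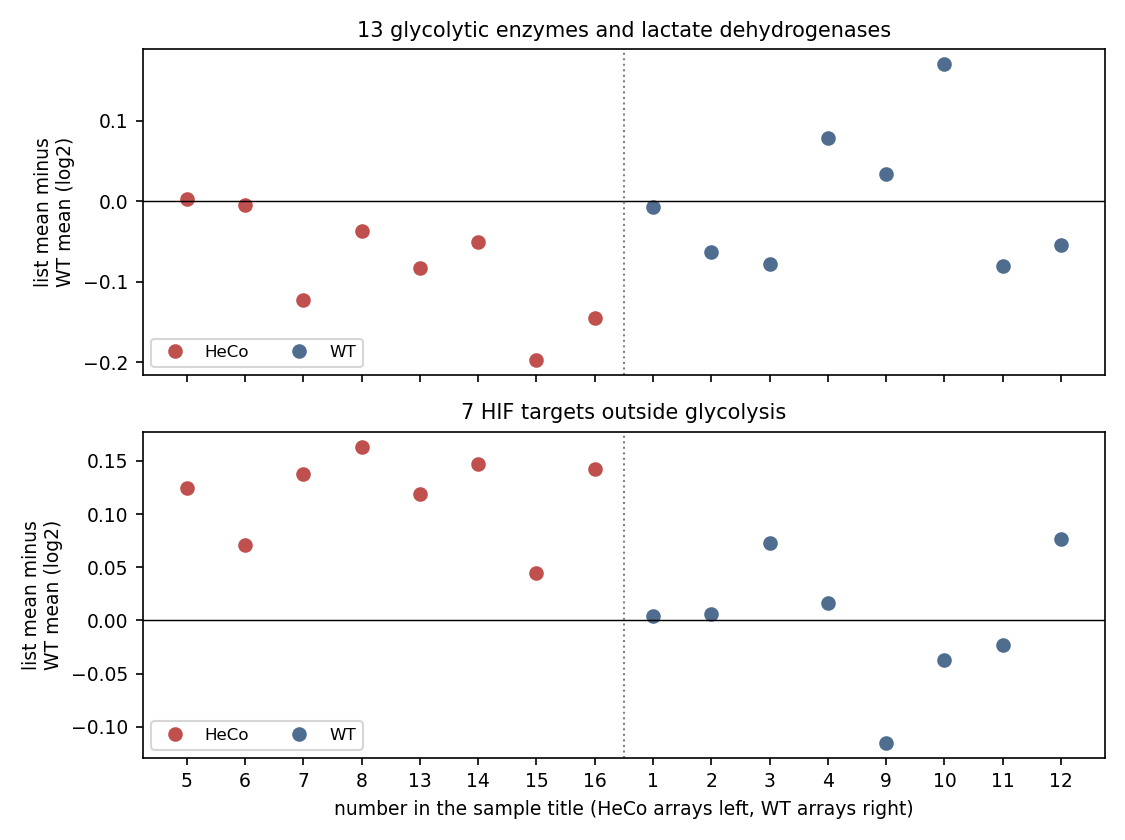
Mean log2 signal of 13 glycolytic enzymes and lactate dehydrogenases (top) and of 7 HIF targets outside glycolysis (bottom) on each array, minus the WT mean, with HeCo arrays left and WT arrays right of the dotted line. The HIF targets lie above 0 on all 8 HeCo arrays, whereas the enzymes run from -0.20 to 0.0025 on HeCo arrays and from -0.080 to 0.17 on WT arrays.

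The 4 genes that decide the fate of pyruvate and lactate had differences of both signs. Pdk1 is a HIF target and a kinase that inhibits pyruvate dehydrogenase. It ran from 6.88 to 7.24 (median 7.04) in HeCo and from 6.71 to 7.09 (median 6.86) in WT. On 7 of 8 HeCo arrays it was above the WT mean, but 1 alone exceeded all WT arrays. The means were 7.04 ± 0.11 in HeCo and 6.88 ± 0.14 in WT (SD, n = 8 each), with a difference of 0.16 (SE 0.076, limma adjusted p = 0.71).

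Ldhb, the lactate dehydrogenase subunit that favours pyruvate formation, had a dim probe, detected on 6 HeCo and 8 WT arrays. It ran from 4.45 to 5.48 (median 5.13) in HeCo and from 5.09 to 5.53 (median 5.31) in WT. HeCo 6 and HeCo 16, where it was not detected, gave the lowest values. The means were 5.07 ± 0.33 in HeCo and 5.30 ± 0.17 in WT (SD, n = 8 each), a difference of -0.23 (SE 0.12, limma adjusted p = 0.741).

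Ldha, the subunit that favours lactate formation and whose promoter holds the paired cores shown above, averaged 12.14 ± 0.13 in HeCo and 12.20 ± 0.098 in WT (SD, n = 8 each), a difference of -0.059 (SE 0.063). Slc16a3 (MCT4), the transporter that exports lactate, was detected on 5 HeCo and 7 WT arrays and differed by -0.10 (SE 0.094). None of the 4 passed the test.

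Related enzymes were also compared within each array where both were detected on all 16 arrays, as a description with no test. The log2 ratio of Pfkp to Pfkl was 0.14 higher in HeCo (SE 0.091), that of Pfkm to Pfkl 0.038 higher (SE 0.057) and that of P4ha1 to P4ha2 0.11 higher (SE 0.093). Hk2 with Hk1, Eno1 with Eno2 and Bnip3 with Bnip3l could not be set against each other because 1 of each pair was not measured.

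The probes of 1 gene give a second look at a difference, and 12 members had more than 1 kept probe. All probes pointed the same way for Kdm3a, Vegfa, P4ha1, Ndrg1, Pfkp, Pfkl, Pfkm and Pgk1, and they split for Egln1, P4ha2, Hk1 and Tpi1. Of the 42 kept member probes, 8 had an unadjusted limma p under 0.05, against 6.98% of all kept probes. They were the 3 probes of Kdm3a, the dimmer probe of Ndrg1 and the single probes of Eno2, Egln3, Ankrd37 and Aldoa. The position of each probe on its transcript is unknown here.

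**Figure D4:**
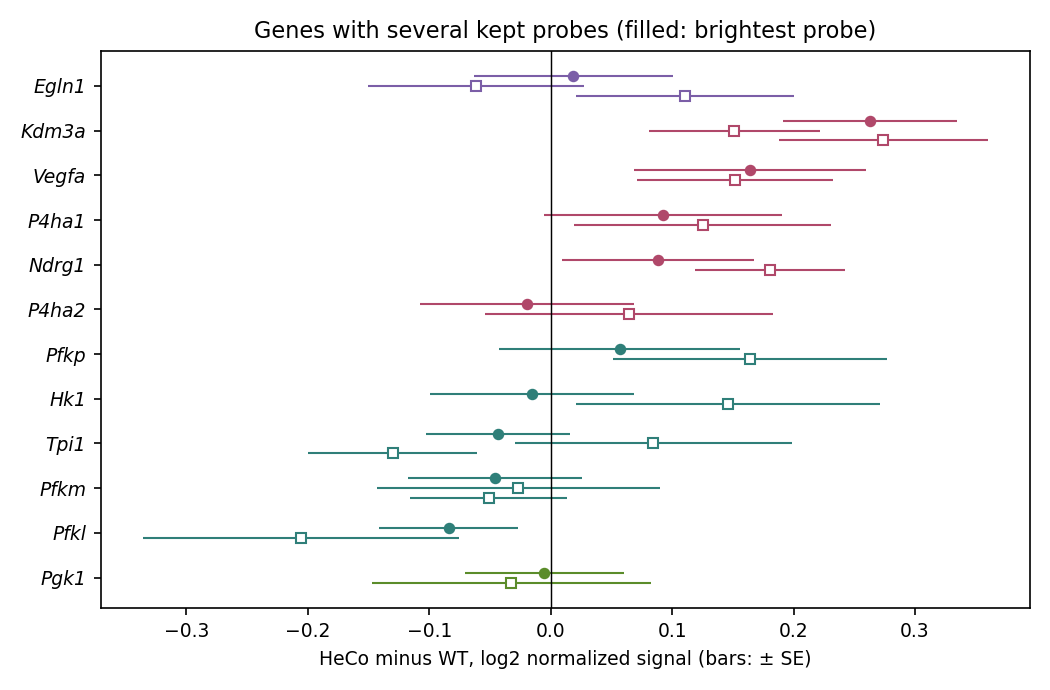
Difference between HeCo and WT (log2 signal) with its SE for every kept probe of the 12 members with more than 1, the brightest probe filled and the others open. The 3 Kdm3a probes lie between 0.15 and 0.27, while those of Tpi1 run from -0.13 to 0.084.

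The numbers in the titles and those in the descriptions each divide the 16 arrays into subsets of 4 HeCo and 4 WT. The labels do not explain the numbers. All subsets reuse the arrays of the main comparison, so they describe its spread and are not an independent repeat. Kdm3a stayed positive in all of these subsets, between 0.19 and 0.34. Ankrd37, Egln3, Vegfa, P4ha1, Hif1a and Pdk1 were positive in all of them as well, and Eno2, Aldoa, Ldhb and Slc16a3 negative in all. The rest of the glycolytic enzymes changed sign: Pfkm gave 0.099 in title numbers 1 to 8 and -0.19 in 9 to 16, and Pgam1 gave 0.042 and -0.16. Epas1 gave 0.44 in description numbers 1 to 8 and -0.072 in 9 to 16.

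**Figure D5:**
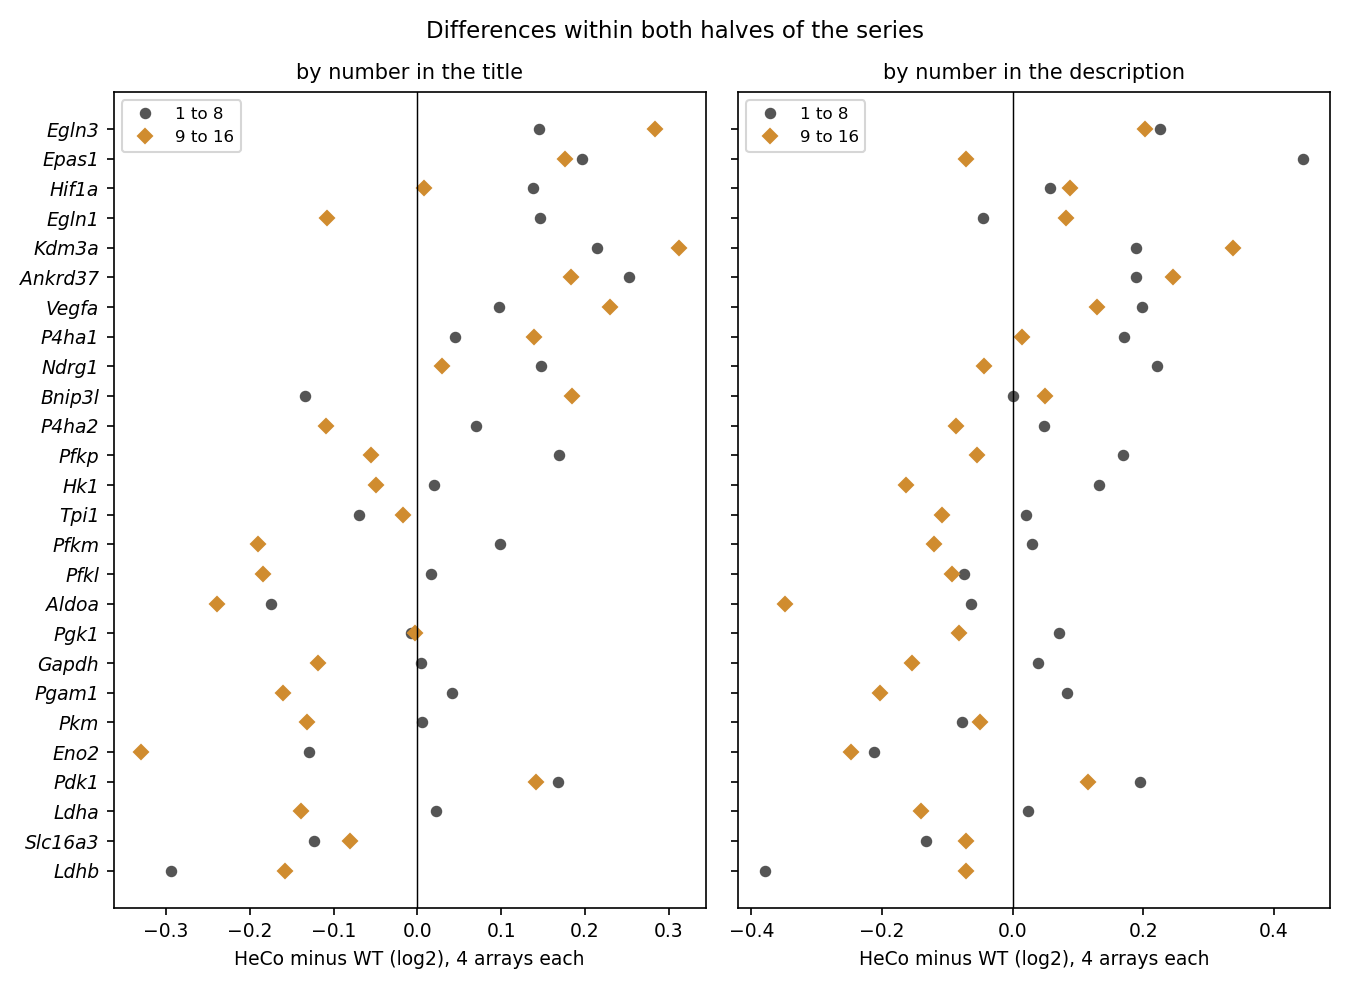
Difference between HeCo and WT (log2 signal) for the 26 genes within numbers 1 to 8 (circles) and 9 to 16 (diamonds), by title (left panel) and by description (right panel), 4 arrays per group in each. The points of Kdm3a, Ankrd37, Egln3 and Vegfa stay right of 0 and those of Eno2 and Aldoa left of it, whereas most other glycolytic enzymes lie near or right of 0 in numbers 1 to 8 and left of it in 9 to 16.

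Whether members varied together from sample to sample was examined with Pgk1, after the mean of its group was taken from each array. Of 12 partners listed, 10 were measured, and 0 pairs passed an adjusted p of 0.05 by Pearson's r or Spearman's rho over 16 arrays. The strongest was Egln3, with r = -0.55 (permutation p = 0.0311, adjusted over the 10 pairs p = 0.311) and rho = -0.46 (permutation p = 0.076, adjusted p = 0.45). Without HeCo 7 and WT 2, the arrays farthest from the median of Pgk1, r was -0.37. With Aldoa r was 0.33 (permutation p = 0.211, adjusted p = 0.703, rho = 0.38 with permutation p = 0.147), and it was 0.014 without the same arrays. Within the 8 HeCo arrays r with Aldoa was 0.70 (permutation p = 0.0316, adjusted p = 0.316) and rho 0.86 (permutation p = 0.0107, adjusted p = 0.107), and r was 0.59 without HeCo 7 and HeCo 15. Within the 8 WT arrays r was 0.16 (permutation p = 0.659, adjusted p = 0.824) and rho 0.14 (permutation p = 0.736, adjusted p = 0.818).

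Further genes of the same pathways were read from lists that did not enter the members but were also chosen with earlier results of these data known. Of 37 other genes of glycolysis, glucose and lactate handling, 21 were measured and 0 passed the adjusted threshold, with a median difference of -0.0047 and an unadjusted limma p under 0.05 in 2 (9.52% of 21, near the 7.05% of all genes). Slc2a1 (GLUT1), the glucose transporter of the blood-brain barrier and a HIF target, averaged 11.85 ± 0.17 in HeCo and 11.54 ± 0.32 in WT (SD, n = 8 each). All 8 HeCo arrays lay above the WT mean, and the difference was 0.31 (SE 0.11, limma adjusted p = 0.621). Pdp2, a phosphatase that reactivates pyruvate dehydrogenase and so works against Pdk1, differed by -0.14 (SE 0.063, limma adjusted p = 0.692).

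Of 41 other hypoxia response genes, 36 were measured and 0 passed the adjusted threshold, with a median difference of 0.019. An unadjusted limma p under 0.05 was found for 5 (13.9% of 36, against 7.05% of all genes), of which 4 had the higher mean in HeCo (3.74% of all genes) and 1 the lower (3.31%). Hif3a, a HIF alpha subunit whose variants can restrain the others, averaged 8.50 ± 0.18 in HeCo and 8.18 ± 0.23 in WT (SD, n = 8 each), a difference of 0.32 (SE 0.098, limma adjusted p = 0.479), with 8 of 8 HeCo arrays above the WT mean. The vasoconstrictor endothelin 1 (Edn1) differed by 0.28 (SE 0.11, limma adjusted p = 0.621). The Myc antagonist Mxi1 differed by 0.31 (SE 0.12, limma adjusted p = 0.673). The circadian repressor Bhlhe40 was the one with the lower mean, at -0.23 (SE 0.096, limma adjusted p = 0.692).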

How the data were processed

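The authors deposited a table of signal intensities on a linear scale with a detection p-value for each probe and array, and a series matrix of linear intensities that match quantile-normalized signals to within 0.004741 (log2). Per the submitters' processing notes, GenomeStudio was used. Here the signals were background-corrected from the detection p-values (offset 16), quantile-normalized and put on the log2 scale with limma 3.58.1 in R 4.3.3. Probes detected (p under 0.05) on at least 8 of 16 arrays were kept (18532 of 45281). Probes were named through the platform annotation, with symbols updated through Entrez identifiers (GRCm38.p6 table). HeCo was compared with WT by lmFit and eBayes with a trend over all kept probes, two-sided, and p-values were adjusted by Benjamini-Hochberg over 10624 genes. The offset shrinks differences of dim genes. The script was tested on simulated data. Correlations and plots used Python 3.11.15 with matplotlib 3.10.9. Permutation p-values came from 100000 resamples over 16 arrays and from all orderings within the 8 arrays of a group.

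Groups came from sample titles. The members and lists were chosen with earlier results of these data known. Full values are given for members with p under 0.05 and for the 2 members of each role with the smallest p, and of other lists for up to 4 genes with the smallest p. Alternatives covered background correction, scaling, filter, probe choice, array weights and subsets of arrays.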

Additional observations from a re-analysis of the deposited data

Results flagged for a closer look

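In 5 of the 52 groups of 8 arrays examined (26 genes in HeCo and in WT), the highest or lowest array was separated from its nearest neighbour by more than Dixon's 95% limit, and chance gives about 1 in 20 groups. In HeCo, Pgk1 was lowest on HeCo 7 at 10.66 (next 10.88) and P4ha1 lowest on HeCo 15 at 5.82 (next 6.24). In WT, all 3 such values fell on WT 10, the array with the lowest mean signal and the fewest detected probes: Aldoa was highest there at 11.21 (next 10.81), Bnip3l lowest at 11.45 (next 11.77) and Hif1a lowest at 7.38 (next 7.90). Without WT 10 the difference between HeCo and WT was -0.13 for Aldoa, -0.035 for Bnip3l and -0.014 for Hif1a.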

How the results depend on the processing

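No member passed the adjusted threshold under any of 30 alternative settings, and 722 of 777 recomputed member differences kept their sign. The 3 counts of members (those with unadjusted p under 0.05, the enzymes lower and the HIF targets higher in HeCo) were added after the data had been seen. The 6 genes called in the whole series became 10 with the mean of a gene's probes, 1 and 2 in title numbers 1 to 8 and 9 to 16, and 2 and 1 in description numbers 1 to 8 and 9 to 16. They were 2 to 7 when 1 array was left out (2 without HeCo 5, HeCo 8 or WT 2, 3 without WT 9). Of the calls, 66.7% were higher in HeCo, and 83.3% under median scaling. The 5 members with unadjusted p under 0.05 (against 7.05% of all genes) became 8 with the mean of probes (against 7.5%). There were 3 without HeCo 7 and HeCo 16 (against 5.4% of all genes). The count was 2 in title numbers 1 to 8 (against 3.14%) and 2 in description numbers 9 to 16 (against 2.48%). The median member difference was 0.048 under median scaling (all genes 0.048), 0.043 and -0.052 in the title subsets, and 0.053 and -0.071 in the description subsets. The enzymes lower in HeCo were 5 of 13 in title numbers 1 to 8 and in description numbers 1 to 8.

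Signs reversed as follows. Median scaling gave 0.037 for Hk1, 0.0077 for Pfkm, 0.058 for Pgk1 and 0.031 for P4ha2. The mean of probes gave 0.066 for Hk1 and 0.023 for P4ha2. Array weights gave 0.034 for Pgk1, -0.029 for Bnip3l and 0.0029 for P4ha2. Without HeCo 7 and HeCo 16, Pfkp gave -0.010, Tpi1 0.013 and Pgk1 0.027. Title numbers 1 to 8 gave 0.020 for Hk1, 0.016 for Pfkl, 0.099 for Pfkm, 0.0040 for Gapdh, 0.042 for Pgam1, 0.0052 for Pkm, 0.022 for Ldha, -0.13 for Bnip3l and 0.070 for P4ha2. Title numbers 9 to 16 gave -0.055 for Pfkp and -0.11 for Egln1. Description numbers 1 to 8 gave 0.13 for Hk1, 0.029 for Pfkm, 0.020 for Tpi1, 0.040 for Gapdh, 0.072 for Pgk1, 0.084 for Pgam1, 0.024 for Ldha, -0.0001 for Bnip3l, -0.045 for Egln1 and 0.047 for P4ha2. Description numbers 9 to 16 gave -0.055 for Pfkp, -0.072 for Epas1 and -0.044 for Ndrg1. Leaving out 1 array gave ranges across 0 for Bnip3l (-0.035 to 0.052), Egln1 (-0.019 to 0.061), Hif1a (-0.014 to 0.11), Hk1 (-0.054 to 0.020), P4ha2 (-0.054 to 0.031) and Pgk1 (-0.037 to 0.032). The correlation of Pgk1 with Tpi1 was -0.22 without HeCo 7 and HeCo 16 and -0.24 within WT arrays. Within HeCo arrays it was -0.057 with Ldha, 0.0084 with Pdk1, 0.18 with Vegfa and -0.39 with Ndrg1, and within WT arrays -0.070 with P4ha1. The cause of these reversals was not tested. Dim probes limit Ldhb, Epas1 and Slc16a3. No paired analysis was possible because the title numbers are not shared between groups.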
